A study of Selaginella nipponica with 6 samples.

Results

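RNA-seq of 6 libraries of *Selaginella nipponica*, a spikemoss, was used to follow the 6 *SPL* unigenes that lie outside the miR156 clade, out of 206768 unigenes in all. They were chosen by their place in the tree of SBP domains drawn by the study, not by their expression, although earlier results of these data were known when the set was proposed. TRINITY_DN101273_c2_g1, TRINITY_DN98908_c1_g3, TRINITY_DN104062_c0_g2 and TRINITY_DN106508_c2_g1 belong to the RTYF clade, TRINITY_DN104475_c0_g1 to the TIG clade and TRINITY_DN98817_c0_g1 to the Ank2 clade. A unigene is the longest transcript assembled for a gene, and its identifier is given from here on without the common Trinity prefix. The plants were untreated and grew wild in a single population, so their ages and genotypes are not defined by the labels. There were 3 libraries of the vegetative prostrate shoots, harvested with their emerging roots, and 3 libraries of the reproductive erect shoots, harvested with their sporangia. The replicates were subsamples of each harvest, so the p-values measure the spread between such subsamples.

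*SPL* genes encode plant transcription factors that share the DNA-binding SBP domain. Most members of the miR156 clade carry a site for the microRNA miR156, which lowers such transcripts in young shoots of flowering plants, whereas the RTYF, TIG and Ank2 clades are not known for such a site. In *Arabidopsis thaliana* the RTYF clade is represented by *SPL8*, which is required for normal sporogenesis in anthers and ovules. The TIG clade holds *SPL7*, the regulator of the response to copper shortage in *Arabidopsis*, and the Ank2 clade holds *SPL1*, *SPL12*, *SPL14* and *SPL16*, large proteins with ankyrin-like repeats, of which *SPL1* and *SPL12* act in heat tolerance in that species. These roles are from *Arabidopsis*, and none was measured here.

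Total counts lay between 15679196 and 20244006 per library, and the 6 unigenes had between 194 and 6941 counts in each, so the counting error of their lowest value was 7.18%. All 6 of them passed the filter on low counts, as did 23275 unigenes in all. The unit of expression, CPM, is a count divided by the scaled total of its library and multiplied by 1000000. Transcript lengths were not used here, so the CPM of different unigenes also reflect their lengths and the unigenes are not ordered by level. A log2 fold change compares erect with prostrate shoots and is positive where the erect shoots were higher. Its standard error is written SE. A difference was called where the adjusted p was under 0.05 and the absolute log2 fold change above 1. In whole shoots, fewer cells of a type and less RNA per cell cannot be told apart, and the parts that roots and sporangia had in the values were not tested.

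Expression of 2 of the 6 unigenes changed between the types of shoots, both of them in the RTYF clade and in opposite directions. DN101273_c2_g1 rose in the erect shoots and DN106508_c2_g1 fell, while the remaining RTYF unigenes and those of the TIG and Ank2 clades were not called. Over all tested unigenes 13.2% were called, 7.94% as higher in the erect and 5.31% as higher in the prostrate shoots, and 11.7% of the 6920 unigenes within the range of mean CPM of these *SPL*s were called. The median log2 fold change of the 6 was -0.36, beside -0.01 for all unigenes tested.

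DN101273_c2_g1, which the tree pairs with DN98908_c1_g3, had 16.3, 21.9 and 11.5 CPM in prostrate replicates 1, 2 and 3. It had 61.7, 54.7 and 39.5 CPM in erect replicates 1, 2 and 3. The lowest of the erect libraries was above the highest prostrate library, and replicate 3 was the lowest library of each type. Expression was 3.14-fold higher in the erect shoots (log2 fold change 1.65, SE 0.290, adjusted p = 0.00902 by edgeR's quasi-likelihood test). The 95% interval of the log2 fold change ran from 0.98 to 2.33, so it reached just under the threshold of 1. A test against that threshold rather than against no change (edgeR's glmTreat) gave an adjusted p of 0.0922.

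DN98908_c1_g3, its neighbour in the tree, had 33.2, 33.1 and 14.4 CPM in prostrate replicates 1, 2 and 3 and 18.6, 20.1 and 22.8 CPM in erect replicates 1, 2 and 3. Prostrate replicate 3 was below every erect library, whereas prostrate replicates 1 and 2 were above them. The log2 fold change of -0.39 (SE 0.327, adjusted p = 0.484 by edgeR) was not called, and its 95% interval from -1.15 to 0.37 did not leave out a 2-fold decrease. Without prostrate replicate 3 the log2 fold change was -0.72 with an adjusted p of 0.0374, still short of the fold threshold, and over the 18 alternatives the adjusted p lay between 0.0374 and 1.00.

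DN106508_c2_g1, in the other RTYF branch, had 50.005, 85.5 and 89.0 CPM in prostrate replicates 1, 2 and 3 but 11.6, 12.0 and 10.6 CPM in erect replicates 1, 2 and 3. The erect libraries lay close together and far below each prostrate library. Expression was 6.56-fold lower in the erect shoots, a log2 fold change of -2.71 with a 95% interval from -3.32 to -2.11 (SE 0.262, adjusted p = 0.000732 by edgeR). It lay at percentile 2.18 of the log2 fold changes of all tested unigenes, and DN101273_c2_g1 at percentile 91.5.

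DN104062_c0_g2, which pairs with DN106508_c2_g1 in the tree, had 28.2, 31.3 and 26.9 CPM in prostrate replicates 1, 2 and 3 and 25.2, 20.7 and 16.9 CPM in erect replicates 1, 2 and 3. The groups were apart, but the gap between prostrate replicate 3 and erect replicate 1 was small. The log2 fold change was -0.46 (SE 0.209, adjusted p = 0.192 by edgeR), with a 95% interval from -0.95 to 0.03. Groups without overlap were found in 3 of the 6 *SPL*s, beside 36.2% of all tested unigenes. By direction, 1 of the 6 was higher in the erect shoots without overlap, beside 19.4% of the tested unigenes, and 2 were higher in the prostrate shoots, beside 16.8%.

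**Figure D1:**
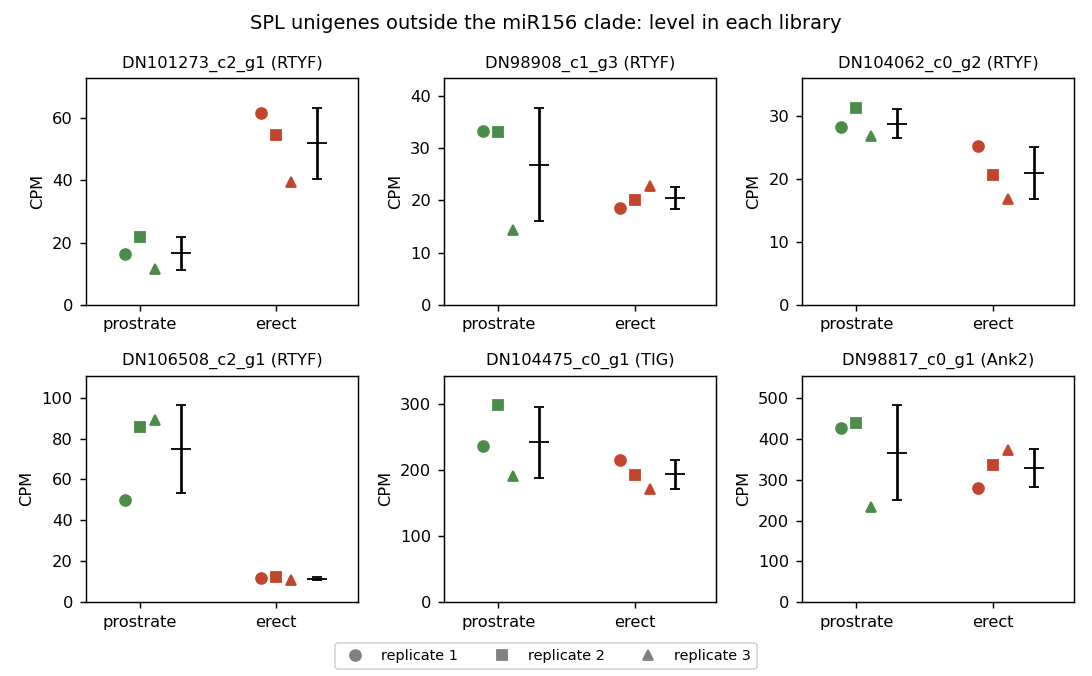
CPM (linear axis from 0) of each of the 6 *SPL* unigenes in the 3 prostrate (green) and 3 erect (red) libraries, with the mean and SD in black. DN101273_c2_g1 is higher in every erect library (39.5 to 61.7 CPM against 11.5 to 21.9), and DN106508_c2_g1 is lower in every erect library (10.6 to 12.0 CPM against 50.005 to 89.0).

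The TIG unigene DN104475_c0_g1 had 237, 299 and 192 CPM in prostrate replicates 1, 2 and 3 and 216, 193 and 172 CPM in erect replicates 1, 2 and 3. The groups overlapped, and the log2 fold change was -0.33 (SE 0.212, adjusted p = 0.358 by edgeR). The Ank2 unigene DN98817_c0_g1 had 428, 441 and 233 CPM in prostrate replicates 1, 2 and 3. In erect replicates 1, 2 and 3 it had 280.2, 336 and 373 CPM, values that all fell between the prostrate extremes. Its log2 fold change was -0.16 (SE 0.271, adjusted p = 0.758 by edgeR), and without prostrate replicate 3 it was -0.42 (adjusted p = 0.131).

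A missed threshold does not show equal expression, so the intervals were read as well. For DN104475_c0_g1 the 95% interval ran from 0.567-fold to 1.12-fold of the prostrate level, and for DN98817_c0_g1 from 0.580-fold to 1.39-fold. For DN104062_c0_g2 it ran from 0.518-fold to 1.02-fold. These 3 intervals lay within a 2-fold change in either direction, as did those of 29.7% of all tested unigenes. That share was not limited to unigenes of like CPM, and the width of an interval depends on the counts. Log2 fold changes were below 0 in 5 of the 6 *SPL*s, the exception being DN101273_c2_g1. With library totals in place of TMM scaling the median of all tested unigenes moved from -0.01 to 0.10, and the same 5 values stayed below 0, the closest to 0 being -0.04 for DN98817_c0_g1.

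**Figure D2:**
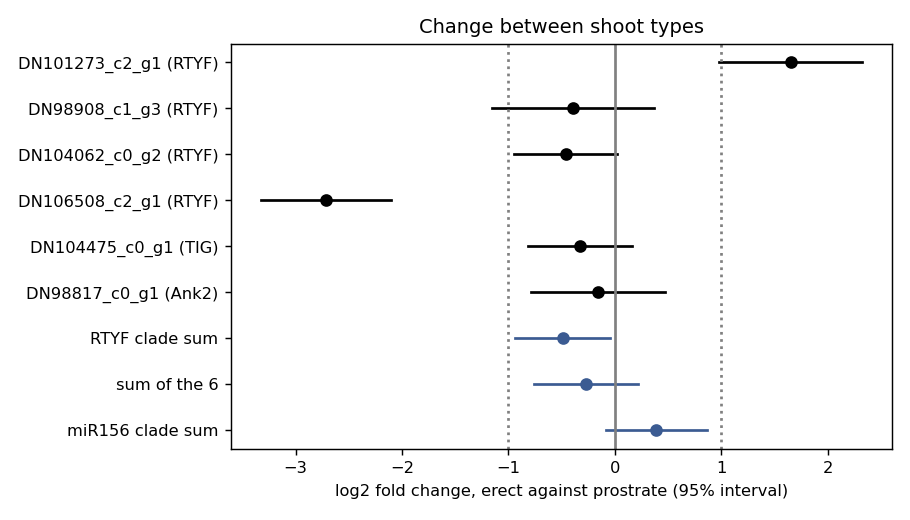
Log2 fold change of erect against prostrate shoots for each *SPL* unigene (black) and for summed counts of clades (blue), with 95% intervals from the edgeR fit. Dotted lines mark 2-fold changes. DN101273_c2_g1 (1.65) and DN106508_c2_g1 (-2.71) lie on opposite sides of 0, and the intervals of the TIG and Ank2 unigenes lie between the dotted lines.

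Members of the RTYF clade were compared by ratios of counts inside each library, which do not depend on how libraries are scaled. A changed ratio does not tell which of its unigenes changed or in which direction. The ratio of unlike transcripts reflects their lengths, but its change between the types of shoots does not. In the first branch, the ratio of DN101273_c2_g1 to DN98908_c1_g3 was 0.490, 0.662 and 0.799 in prostrate replicates 1, 2 and 3 and 3.32, 2.72 and 1.73 in erect replicates 1, 2 and 3. DN98908_c1_g3 thus had the larger count in each prostrate library and DN101273_c2_g1 in each erect library. This ratio changed by 1.97 on the log2 scale, or 3.92-fold, against SDs of 0.356 among prostrate and 0.480 among erect libraries (log2 scale, n = 3; two-sided exact permutation test, p = 0.1, adjusted p = 0.167 over 15 pairs).

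In the second branch the ratio of DN104062_c0_g2 to DN106508_c2_g1 was 0.564, 0.366 and 0.302 in prostrate replicates 1, 2 and 3 and 2.16, 1.72 and 1.59 in erect replicates 1, 2 and 3. Here too the larger count passed from DN106508_c2_g1 in each prostrate library to its neighbour in each erect library. The change was 2.19 on the log2 scale, or 4.56-fold (exact permutation test, p = 0.1, adjusted p = 0.167 over 15 pairs). Both unigenes of this pair had log2 fold changes below 0 (-0.46 for DN104062_c0_g2 and -2.71 for DN106508_c2_g1). Between the branches, DN101273_c2_g1 over DN106508_c2_g1 was 0.326, 0.256 and 0.129 in prostrate replicates 1, 2 and 3 and 5.29, 4.55 and 3.72 in erect replicates 1, 2 and 3. This 20.3-fold change (4.34 on the log2 scale, exact permutation test, p = 0.1, adjusted p = 0.167) was the largest of the 15 pairs. With 3 libraries against 3 the exact test cannot give a p below 0.1, so none of these differences could pass 0.05.

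Of the 15 pairs of these *SPL*s, the ratio did not overlap between the types of shoots in 9. These 9 are all the pairs that hold DN101273_c2_g1 or DN106508_c2_g1, so they repeat the changes of these called unigenes and are not 9 separate results. Over all pairs of tested unigenes the share without overlap was 39.2%. The remaining 6 pairs, among DN98908_c1_g3, DN104062_c0_g2 and the TIG and Ank2 unigenes, overlapped. Between the TIG and the Ank2 unigene the ratio differed by -0.20 on the log2 scale, within SDs of 0.286 and 0.373 (n = 3; exact permutation test, p = 0.5, adjusted p = 0.577). The steadiest ratio over all 6 libraries joined members of different clades. DN98908_c1_g3 over DN98817_c0_g1 spanned 1.30-fold from its lowest to its highest library, and DN104062_c0_g2 over DN104475_c0_g1 spanned 1.43-fold. Within the branches of the RTYF clade the spans were 6.77-fold and 7.14-fold, but each of these pairs holds a called unigene. The RTYF pair without a called unigene, DN98908_c1_g3 over DN104062_c0_g2, spanned 2.52-fold. It was the only pair within a clade among the 6 without a called unigene. Pairs across clades thus had more occasions to be the steadiest. DN104062_c0_g2 over DN98817_c0_g1, a pair across clades, spanned 2.55-fold. How often pairs of other unigenes have spans this small was not tested. All points of a pair share their libraries, so the spans are a description.

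**Figure D3:**
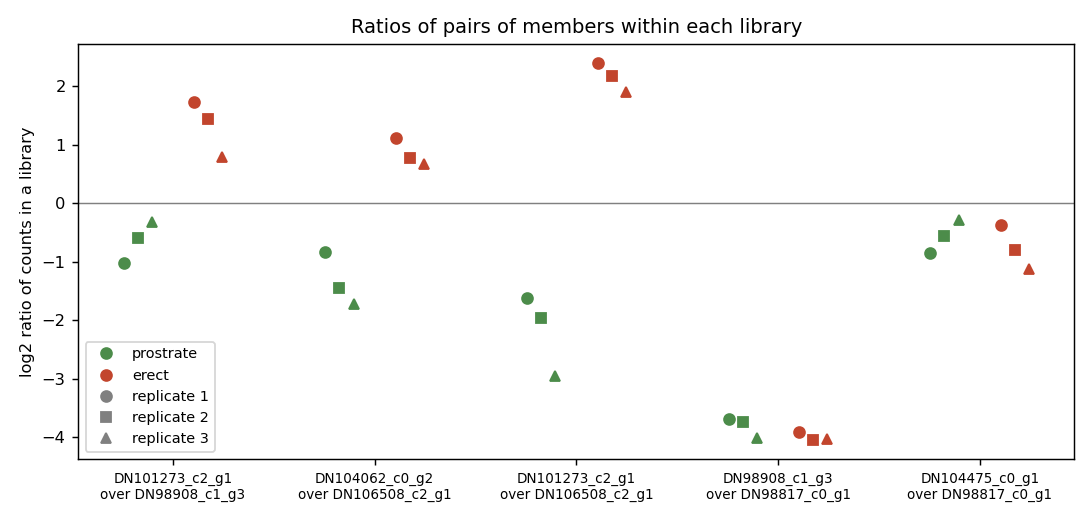
Log2 ratio of the counts of pairs of *SPL* unigenes within each library, for prostrate (green) and erect (red) libraries. In the first 3 pairs, all in the RTYF clade, the prostrate libraries lie below 0 and the erect libraries above it, while the last pairs show little or no separation.

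Summed over its 4 unigenes, the RTYF clade had 128, 172 and 142 CPM in prostrate replicates 1, 2 and 3 and 117, 108 and 89.6 CPM in erect replicates 1, 2 and 3. The erect libraries were all lower, but the log2 fold change of -0.49 (SE 0.191, 95% interval from -0.93 to -0.05) was not called, with an adjusted p of 0.135 by edgeR over all tested unigenes. Behind this sum the make-up of the clade's counts differed between the types of shoots. Shares of counts also reflect transcript lengths. DN106508_c2_g1 gave 39.2, 49.8 and 62.8% of the RTYF counts in prostrate replicates 1, 2 and 3 and 9.95, 11.2 and 11.8% in erect replicates 1, 2 and 3. DN101273_c2_g1 took 12.7, 12.7 and 8.09% in prostrate replicates 1, 2 and 3 and 52.7, 50.9 and 44.0% in the erect replicates of the same numbers. The changes in share were -39.6 and 38.0 percentage points, each without overlap (exact permutation test, p = 0.1, the smallest possible, adjusted p = 0.2 over the 4 shares). Shares of the same total depend on each other, so these changes repeat those of the called unigenes and are not separate results. With counts summed over whole Trinity components, the groups of assembled transcripts that Trinity built together, the changes in share were -13.8 and 21.2 points. The share of DN104062_c0_g2 was 19.8% ± 2.05 (SD, n = 3) among prostrate and 19.8% ± 1.45 among erect libraries. That of DN98908_c1_g3 was 18.5% ± 7.97 and 19.99% ± 4.89, a difference within the spread of the libraries.

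**Figure D4:**
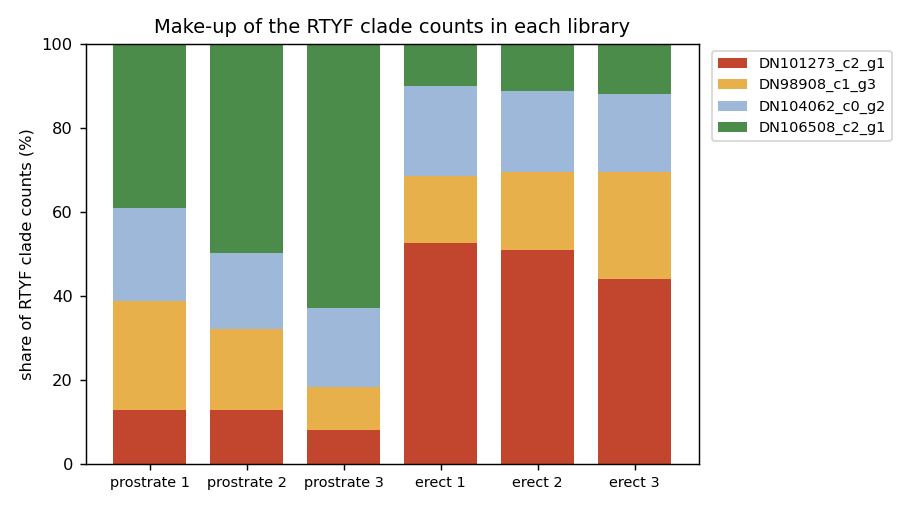
Share (%) of each RTYF unigene in the counts of the clade, 1 bar for each library. DN106508_c2_g1 (green) takes 39.2 to 62.8% in the prostrate and 9.95 to 11.8% in the erect libraries, and DN101273_c2_g1 (red) takes 8.09 to 12.7% and 44.0 to 52.7%.

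All 6 unigenes together had 793, 911 and 566 CPM in prostrate replicates 1, 2 and 3 and 613, 636 and 634 CPM in erect replicates 1, 2 and 3. The erect libraries were nearly alike and lay inside the range of the prostrate ones (log2 fold change -0.27, 95% interval from -0.76 to 0.22, adjusted p = 0.452 by edgeR). Most of these counts came from the TIG and Ank2 unigenes, with 11338 and 17105 counts over the prostrate libraries, so the sum says little of the RTYF unigenes. For comparison, the 5 unigenes of the miR156 clade taken with DN105179_c0_g2, which the study describes as overlapping DN103335_c1_g1 in sequence, gave a summed log2 fold change of 0.39 (95% interval from -0.08 to 0.86, adjusted p = 0.256 by edgeR). Most counts of this sum came from DN103335_c1_g1 alone, with 22006 over the prostrate and 35998 over the erect libraries. The ratio that follows therefore rests largely on that unigene. The log2 ratio of RTYF to miR156 clade counts was -2.54, -2.04 and -1.88 in prostrate replicates 1, 2 and 3 and -3.05, -2.97 and -3.09 in erect replicates 1, 2 and 3. It was lower in each erect library, by a mean of -0.89 on the log2 scale (exact permutation test, p = 0.1, the smallest possible). This ratio of sums was not among the planned comparisons. Ratios of single unigenes did not overlap between the types of shoots in 39.2% of all pairs of tested unigenes. Of the 5 miR156 clade unigenes edgeR called none as higher in the erect shoots (1 at an unadjusted p under 0.05, and none by DESeq2 or limma-voom) and 1 as higher in the prostrate shoots, and DN105179_c0_g2 was called as higher in the erect shoots. Among the *AP2*-like genes printed in the study's other tree, 2 of 2 euAP2 unigenes and 3 of the 4 ANT unigenes that passed the filter were called as higher in the prostrate shoots. Over all tested unigenes 7.94% were called as higher in the erect and 5.31% as higher in the prostrate shoots. The study drew these lists with the same libraries, so the counts are not independent evidence.

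Replicates varied more among the prostrate than among the erect shoots in 5 of the 6 *SPL*s, as they did in 71.5% of all tested unigenes. The SD was between 22.1 and 40.3% of the mean in the prostrate libraries and between 6.51 and 21.9% in the erect libraries for these 5. For DN104062_c0_g2 the order was turned, with 7.82% among prostrate and 19.9% among erect libraries. Prostrate replicate 3 was the lowest prostrate library for 5 of the 6, the exception being DN106508_c2_g1, which was highest there. Over all tested unigenes 37.3% were lowest in that library. Its log2(CPM + 1) lay 0.77 below the prostrate mean for DN98908_c1_g3 and 0.60 below it for DN98817_c0_g1. In the erect shoots these same unigenes were lowest in replicate 1, while the other 4 were lowest in replicate 3. The biological coefficient of variation from edgeR was between 0.227 and 0.311 for the single unigenes, beside 0.275 to 0.298 on the fitted trend. It draws the single values towards that trend, so their closeness is partly built in and does not show an ordinary spread.

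**Figure D5:**
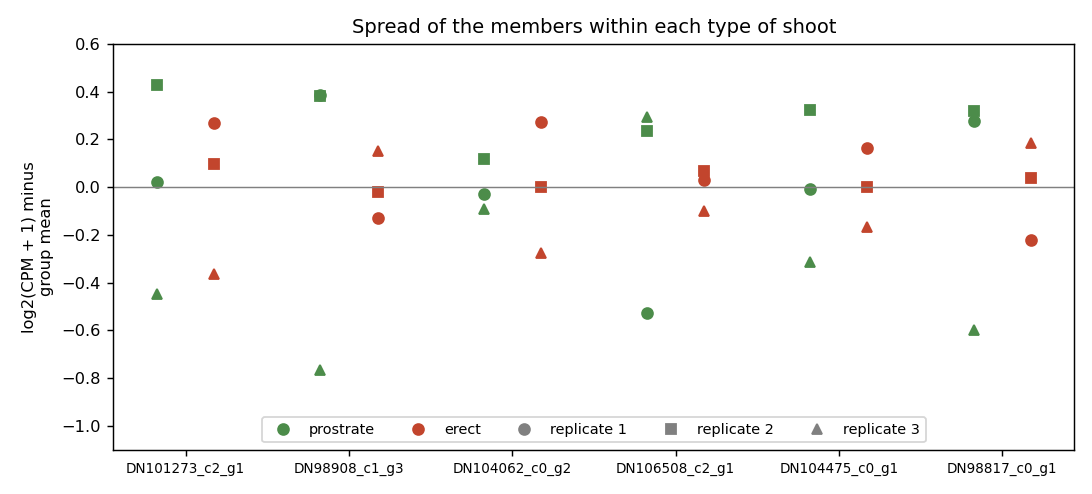
Deviation of each library from the mean of its type of shoot, on log2(CPM + 1), for the 6 *SPL* unigenes. Prostrate replicate 3 (green triangles) is lowest for 5 of 6 unigenes, reaching -0.77 for DN98908_c1_g3, and DN106508_c2_g1 is lowest in prostrate replicate 1.

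The TIG and Ank2 unigenes were each alone in their Trinity component. The RTYF unigenes shared theirs with 16 other unigenes, 4 of them in the same cluster of the component, between which reads could have been split in counting. Of the 8 that passed the filter none was called by edgeR, with 2 at an unadjusted p under 0.05, and none by limma-voom. DESeq2 gave an adjusted p to 11 of the 16 and called 1, DN106508_c0_g1. Over all unigenes, edgeR called 13.2% and limma-voom 13.3% of those tested, and DESeq2 10.1% of those it gave an adjusted p. DN98908_c1_g1, in the cluster of DN98908_c1_g3, had counts of 974, 847 and 418 in prostrate replicates 1, 2 and 3 and 634, 745 and 892 in erect replicates 1, 2 and 3, so it too was lowest in prostrate replicate 3 (log2 fold change -0.29, adjusted p = 0.650 by edgeR). DN104062_c0_g1, in the cluster of DN104062_c0_g2, had between 290 and 438 counts in each library and overlapped between the groups (log2 fold change -0.27, adjusted p = 0.522). In the cluster of DN106508_c2_g1, DN106508_c2_g2 was rare, with counts of 13, 2 and 6 in prostrate replicates 1, 2 and 3. There were 22, 23 and 18 in erect replicates 1, 2 and 3, higher without overlap but not called (log2 fold change 1.29, SE 0.621, adjusted p = 0.213). DN101273_c2_g1 was alone in its cluster, so a cluster sum says nothing of it. For the cluster of DN106508_c2_g1 the summed counts gave a log2 fold change of -2.59 (adjusted p = 0.00100 by edgeR), still called.

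Summed over whole components, DN101273_c2_g1 was joined by DN101273_c1_g1, a unigene of another cluster with counts of 4310, 3569 and 4164 in prostrate replicates 1, 2 and 3 and 7337, 8319 and 6817 in erect replicates 1, 2 and 3. It was higher in each erect library (log2 fold change 0.61, SE 0.173, adjusted p = 0.0535 by edgeR). With it the log2 fold change of the component was 0.71 (adjusted p = 0.0218) and no longer passed the fold threshold. For the component of DN106508_c2_g1 the log2 fold change was -1.23 (adjusted p = 0.00464), still called. On component sums the ratio of the first component to the second changed by 1.92 on the log2 scale, in place of 4.34. Whether the clusters of a component are parts of the same gene was not tested.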

How the data were processed

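RNA-seq libraries came from 3 samples of each type of shoot. From a Trinity assembly the authors deposited estimated counts (expected counts) for 206768 unigenes, not scaled for library size or length. The submitters' processing notes name Trimmomatic 0.36 and HISAT2 2.1.0; for the counting itself no tool is given in the sources used here. Reads shared by similar unigenes may have been split between them.

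Estimated counts were rounded. edgeR 4.0.16 (glmQLFit, glmQLFTest; R 4.3.3) was fitted to all 6 libraries with TMM scaling, filterByExpr (minimum count 10, minimum total 15), a prior count of 0.125 and the type of shoot as the term, with Benjamini-Hochberg adjustment over 23275 unigenes. The filter kept between 98.3 and 98.9% of the counts of a library. The 95% intervals came from the standard error and the degrees of freedom of the fit. Clade sums replaced the rows of their unigenes in the same fit. SE is the standard error of a log2 fold change. Ratios used a pseudocount of 0.5 counts and an exact permutation test over 20 label assignments. The procedure was tested on simulated data. Replicates of a type of shoot differed by more than sampling noise (chi-square of 28.8 to 110 per degree of freedom).

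Unigenes named are the 6 *SPL*s, tested unigenes of their clusters and the 2 unigenes most like each called *SPL*; DN101273_c1_g1, DN106508_c0_g1 and DN105179_c0_g2 were singled out after their values were seen. The members and lists were chosen with earlier results of these data known. DESeq2 1.42.0, limma-voom (limma 3.58.1), other scalings and filters, a replicate block, component sums and the leaving out of each library were the alternatives. Figures were drawn with matplotlib 3.10.9. Sequences, transcript lengths and RT-qPCR values were not analysed here, and no markers of root or sporangium cells were used, so the labelled tissues were not checked.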

Additional observations from a re-analysis of the deposited data

How the results depend on the processing

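The signs of the 6 log2 fold changes held in all 18 alternatives, but not all of these could change them. The robust fit and glmTreat keep the fold changes of the main fit, and sums add no counts to a unigene alone in its component or cluster. The calls held except for DN101273_c2_g1, whose adjusted p was 0.0922 with glmTreat at a log2 fold change of 1.65. With component sums, where counts of further unigenes are added, its log2 fold change was 0.71. With each library left out in turn its log2 fold change lay between 1.42 and 1.89 (adjusted p between 0.0138 and 0.0464), and that of DN106508_c2_g1 between -2.96 and -2.60 (adjusted p between 0.00136 and 0.00747). The values that miss the call rest on 3 libraries a group: with each left out, DN98817_c0_g1 lay between -0.42 and -0.02, DN98908_c1_g3 between -0.72 and -0.23, DN104475_c0_g1 between -0.50 and -0.17, DN104062_c0_g2 between -0.60 and -0.32, and the sum of all 6 between -0.47 (adjusted p = 0.0761, without prostrate replicate 3) and -0.13. None of the clade sums was called in any of 15 alternatives. Component sums moved the ratio of DN101273_c2_g1 to DN98908_c1_g3 to a log2 change of 0.91, that of DN104062_c0_g2 to DN106508_c2_g1 to 0.86 and that of DN101273_c2_g1 to DN106508_c2_g1 to 1.92, and the changes in share to 21.2, -3.31 and -13.8 percentage points for DN101273_c2_g1, DN104062_c0_g2 and DN106508_c2_g1. Over all unigenes, the 1847 called as higher in the erect shoots became 1043 with glmTreat, 1016 with a mean count of at least 50, 1152 with the replicate block and 1028 with component sums. The 1236 called as higher in the prostrate shoots became 2167 with DESeq2, 441 with glmTreat, 3470 with no filter, 703 with a mean count of at least 50, 701 with the replicate block, 674 with component sums and 811 with cluster sums, and between 634 and 1360 with each library left out, the lowest without erect replicate 1 and 698 without erect replicate 2. Filters, sums and DESeq2 change the number of rows tested, and glmTreat tests against the fold threshold. These counts are thus not shares of the same set, and the causes of their changes were not tested. Deviations from the group means correlated at -0.32, 0.05 and -0.14 between same-numbered prostrate and erect libraries. The highest correlations of prostrate replicates 1, 2 and 3 with an erect library of another number were 0.23, -0.004 and 0.25. With 3 libraries a group, these values showed no pairing by number but cannot settle whether there was one. With the replicate block DN101273_c2_g1 had a log2 fold change of 1.68 (adjusted p = 0.0169) and DN106508_c2_g1 of -2.67 (adjusted p = 0.00821).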

Other observations

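Unigenes with a pattern like that of the called *SPL*s were looked up by the Pearson correlation of log2(CPM + 1) over the 6 libraries, which all unigenes share, among unigenes with a mean of at least 1 CPM. The closest to DN101273_c2_g1 were DN100984_c0_g3 (r = 0.9996) and DN97205_c3_g1 (r = 0.998). DN100984_c0_g3 had 22.8, 31.5 and 15.9 CPM in prostrate replicates 1, 2 and 3 and 93.6, 80.1 and 60.3 CPM in erect replicates 1, 2 and 3. Replicate 3 was again the lowest of each type of shoot, which follows from the choice of this unigene by its likeness over these libraries. The closest to DN106508_c2_g1 were DN105467_c0_g1 (r = 0.999) and DN105631_c0_g2 (r = 0.997). DN105467_c0_g1 had 107, 144 and 141 CPM in prostrate replicates 1, 2 and 3 and 45.2, 44.2 and 42.7 CPM in erect replicates 1, 2 and 3. It was highest in prostrate replicate 2 and erect replicate 1, unlike DN106508_c2_g1, which was highest in prostrate replicate 3 and erect replicate 2. Such likeness was common, with r above 0.95 for 409 of 19642 unigenes in the case of DN101273_c2_g1 and for 513 of 19640 in that of DN106508_c2_g1. With Spearman's rho, DN105467_c0_g1 stood at rank 471 and DN105631_c0_g2 at rank 90, and with log2(CPM + 5) DN97205_c3_g1 stood at rank 17, so the order depends on the measure and the scale.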
